A study of Mus musculus with 3 samples.

Results

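The genes examined here were the parts and the downstream effectors of the BCR-FGFR1 oncogene in peripheral blood (PB) of mice with 8p11 stem cell leukemia/lymphoma (SCLL). They were 9 genes of the 32285 listed in the count tables: Fgfr1 and Bcr, the fusion partners, and Myc, Mycn, Flt3, Kit, Src, Stat5a and Stat5b. All 9 were found, each under 1 identifier. The naive library held PB leukocytes of Balb/C mice without leukemia. The D11 and D14 libraries held PB of Balb/C mice taken 11 and 14 days after engraftment of BBC2 cells. The labels give the genotype WT for all 3 libraries, and the study's methods give female recipients of 6 to 8 weeks of age for its engraftments. BBC2 is a single pro-B-like line that came from stem cells transduced with BCR-FGFR1, with GFP on the same vector, so the leukemia cells of both days have 1 origin.

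FGFR1 is a receptor tyrosine kinase that normally sits at the cell surface and is switched on by fibroblast growth factors. In this leukemia its kinase part is joined to BCR, whose coiled coil pairs the chimeric proteins, so that the kinase is active without ligand in the cytoplasm. Such kinases are known to phosphorylate adaptors, Src family kinases and STAT5 and to act on MYC, and FLT3 and KIT are cytokine receptors of early blood cells that use many of the same routes.

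Messenger RNA was counted per cell with 10x Genomics 3′ v3 chemistry as unique molecular identifiers (UMIs), each standing for 1 captured molecule. The assay reads the 3′ ends of transcripts, the count tables list mouse genes alone, and no entry for GFP or for the fusion was among them. UMIs of Bcr and Fgfr1 therefore cannot be assigned to the native genes or to the chimera. In BCR-FGFR1 the BCR part comes first, so the 3′ end of the chimera is not that of native Bcr. The level of neither gene is a measure of the fusion. For each cell class of each library the UMIs were added up and expressed as CPM, the count of a gene scaled to an equal total of UMIs in every sum. CPM is not corrected for transcript length, and levels were compared between cell classes within a gene. Where genes are set side by side, it is by the UMIs captured and not by amounts of RNA. Brackets hold exact 95% intervals, which cover counting error only. There was 1 library per condition, and the number of mice behind each was not given in the sources used here, so condition and library cannot be told apart and no test was made.

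After barcodes under 200 genes or above 10% mitochondrial UMIs were dropped, there were 3811 naive cells, 4567 from D11 and 4414 from D14, with 26422110, 36950092 and 51192755 UMIs. Leukemia cells were those with at least 3 UMIs of Vpreb1, Igll1, Dntt and Rag1 together, genes of the surrogate light chain and of receptor rearrangement in early B cells. They numbered 2 naive, 109 D11 and 782 D14 cells, or 0.0525%, 2.39% [1.96 to 2.87] and 17.7% [16.6 to 18.9] of kept cells. The D14 leukemia cells held 49.8% of the library's UMIs, against 8.97% at D11, and their median depth was 31691.5 UMIs, above the 6396.5 UMIs of D14 B cells. Early B genes outside the gate were high in them: at D14 Vpreb3 stood at 1681 CPM, Pax5 at 655 CPM and Il7r at 325 CPM. The recombinase genes were near 0, with 6 UMIs of Rag1 and 13 of Rag2 over all 782 D14 cells, so the gate rests on Vpreb1, Igll1 and Dntt. The 2 naive cells had no Dntt UMI and are not described further, and since the naive mice received no BBC2 cells, the gate is not exclusive to leukemia. The libraries shared 12 to 18 barcodes in pairs, and no cell in the leukemia gate was among those kept in both.

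The classes of normal blood were set by marker genes, and 7 of them had at least 30 cells in every library: B cells (Ms4a1, Ighd, Fcer2a), T cells, NK cells, non-classical monocytes (ncMonos), classical monocytes (cMonos), neutrophils and hemoglobin-rich erythroid barcodes. B cells, the nearest normal lineage, numbered 367, 241 and 40. Leukemia RNA was present outside the leukemia cells at D14. At least 1 UMI of the gate's 4 markers was seen in 0 of 1295 naive neutrophils, in 1.30% [0.806 to 1.98] of D11 neutrophils and in 10.3% [8.74 to 12.1] of D14 neutrophils, which should lack them.

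The genes lie apart in the genome except for the STAT5 pair (positions from GRCm38, GENCODE vM21, the build named in the submitters' processing notes). Fgfr1 (ENSMUSG00000031565) lies on chr8:25513654-25575718 and Bcr (ENSMUSG00000009681) on chr10:75060592-75184921, both on the plus strand. Myc (ENSMUSG00000022346) lies on chr15:61985391-61990374, plus strand, and Mycn (ENSMUSG00000037169) on chr12:12936093-12941914, minus strand. Flt3 (ENSMUSG00000042817) lies on chr5:147330741-147400489, minus strand, and Kit (ENSMUSG00000005672) on chr5:75574916-75656722, plus strand. Src (ENSMUSG00000027646) lies on chr2:157418444-157471862, plus strand. Stat5a (ENSMUSG00000004043) on chr11:100859351-100885169, plus strand, and Stat5b (ENSMUSG00000020919) on chr11:100780731-100850724, minus strand, are neighbours with their starts facing each other. Over the last 1000 bases of their transcripts Stat5a and Stat5b share 60 words of 50 bases, so a small part of their reads could be ambiguous, while Myc and Mycn share 0. Stat5a also overlaps Stat3 on the opposite strand.

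RefSeq promoter windows (250 bases before to 50 after a start, build GRCm38.p6) were at hand for 7 of the 9 genes, and those of the 3 whose levels in leukemia cells stood farthest from other blood cells are shown, with CG dinucleotides in capitals. The Bcr window is chr10:75060646-75060945 (plus strand), the Mycn window chr12:12941787-12942086 (minus strand) and the longer Stat5b transcript's window chr11:100850532-100850831 (minus strand).
Bcr: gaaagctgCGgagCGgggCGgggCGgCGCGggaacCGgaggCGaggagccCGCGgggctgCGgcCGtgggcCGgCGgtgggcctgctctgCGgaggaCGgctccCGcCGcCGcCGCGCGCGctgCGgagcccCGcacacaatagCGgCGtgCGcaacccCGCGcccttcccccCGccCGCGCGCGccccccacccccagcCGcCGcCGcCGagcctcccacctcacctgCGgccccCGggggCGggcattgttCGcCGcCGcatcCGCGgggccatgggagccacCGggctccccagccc
Mycn: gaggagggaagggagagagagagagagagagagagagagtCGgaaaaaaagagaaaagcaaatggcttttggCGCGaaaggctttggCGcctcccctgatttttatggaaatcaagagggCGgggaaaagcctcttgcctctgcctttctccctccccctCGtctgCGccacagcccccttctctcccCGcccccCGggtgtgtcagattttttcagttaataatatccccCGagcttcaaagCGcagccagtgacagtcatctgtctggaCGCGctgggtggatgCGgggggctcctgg
Stat5b: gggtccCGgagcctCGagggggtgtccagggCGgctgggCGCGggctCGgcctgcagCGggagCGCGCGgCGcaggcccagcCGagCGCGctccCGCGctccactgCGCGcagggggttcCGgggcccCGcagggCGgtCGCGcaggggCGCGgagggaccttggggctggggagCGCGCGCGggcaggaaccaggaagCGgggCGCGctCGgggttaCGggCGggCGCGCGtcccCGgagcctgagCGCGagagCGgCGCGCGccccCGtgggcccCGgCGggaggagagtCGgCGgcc
The Bcr window holds 48 CG and is 82.3% G or C, and the Stat5b window holds 50 CG and is 82.7% G or C. The Mycn window holds 14 CG and is 56.7% G or C, nearer to the median window, which has 7 CG and is 52.7% G or C over 32851 windows. The E-box CACGTG, the sequence that MYC proteins with MAX bind, was present in 7.15% of all windows (it reads the same on both strands) and in none of these 3, and among the windows of the 9 genes only in that of Flt3. The window of Src, a gene barely seen in blood here, was again 82.3% G or C with 47 CG. So the windows shown of Bcr, higher in leukemia cells, and of Stat5b, lower there, are alike in base composition. The other Stat5b window, chr11:100822521-100822820, is unlike them, with 7 CG and 47.3% G or C.

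Among leukemia cells and the 7 normal classes, Bcr, Myc, Mycn and Fgfr1 had their highest level in leukemia cells at both days. The share of all genes with this order was not counted. The order does not extend to the small gates of a few cells, described further on. Stat5b and Stat5a stood lower in leukemia cells than in each of the 6 nucleated normal classes, although for Stat5a the interval of the ratio to B cells included 1 on both days. The D14 Stat5a ratio to B cells, -0.43 on the log2 scale, turned to 1.27 with a stricter barcode filter and to 0.38 by the mean of per-cell CPM. Flt3, Kit and Src stayed under 10 CPM in the leukemia cells.

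**Figure D1:**
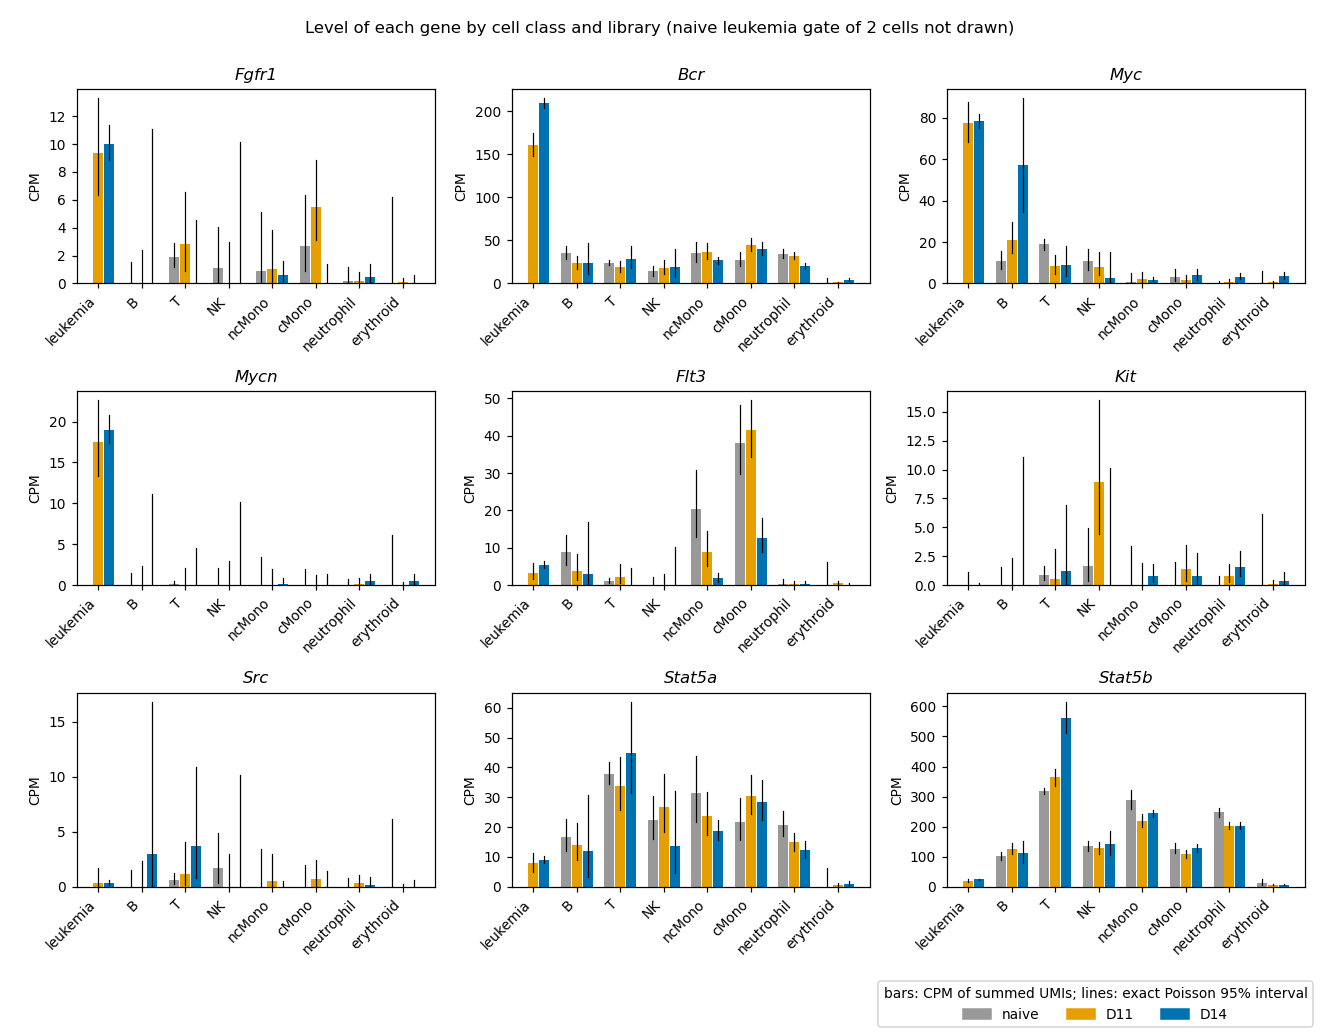
CPM of each gene (vertical axis, one panel per gene, each with its own scale) in leukemia cells and 7 normal classes, with a bar per library (grey naive, orange D11, blue D14) and a line for the exact Poisson 95% interval. Bcr and Mycn stand above every normal class in leukemia cells, D14 B cells come near the leukemia cells for Myc, and Stat5b is lowest in leukemia cells among nucleated classes.

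Bcr encodes a GTPase regulator found in most blood cells, and its RNA was the fusion partner seen most. In leukemia cells it had 533 UMIs at D11, or 161 CPM [147 to 175], and 5330 UMIs at D14, or 209 CPM [203 to 215]. Among the 6 nucleated normal classes it ranged from 14.0 CPM in naive NK cells to 44.5 CPM in D11 cMonos, and in naive B cells it was 35.4 CPM. The leukemia cells thus lay above all of them, by 3.61 times [2.98 to 4.41] over the next of the 7 classes at D11 and 5.22 times [4.30 to 6.40] at D14, cMonos in both cases. Neighbours among the normal nucleated classes mostly had intervals of their ratio that included 1.

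Fgfr1 RNA, the other partner, was scarce. It had 31 UMIs in 25 of 109 leukemia cells at D11, or 9.35 CPM [6.36 to 13.3], and 256 UMIs in 192 of 782 at D14, or 10.0 CPM [8.85 to 11.4]. No Fgfr1 UMI was found in the B cells of any library, and the other normal classes ranged from 0 to 5.48 CPM. At D11 the leukemia cells were not separated from cMonos (1.71 times [0.906 to 3.34]). At D14 they were 16.2 times [6.27 to 60.1] the next observed level, that of ncMonos. The D14 B and NK sums had 0 UMIs but were small, and 3 UMIs in them would be 9.04 and 8.28 CPM. The 16.2 times therefore does not show a separation from B or NK cells. The highest levels of Fgfr1 lay outside these classes: a dendritic cell gate (Siglech, Cd209a, Xcr1, Clec9a, Ccr9) had 22 UMIs in 4 of 6 cells at D11, or 308 CPM [193 to 466], and 13 UMIs in 3 of 3 cells at D14, or 441 CPM [235 to 754]. These few cells held 19.6% of all 112 Fgfr1 UMIs of D11, and they are named because their values stood out.

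Myc, the growth regulator that drives ribosome and nucleotide synthesis, was at 77.5 CPM [68.4 to 87.6] in leukemia cells at D11 and at 78.6 CPM [75.2 to 82.1] at D14. In naive blood its order was T cells at 18.8 CPM, B cells at 10.8 CPM and NK cells at 10.6 CPM, with cMonos at 3.26 CPM and the rest under 1 CPM. B and NK cells did not differ in that order beyond counting error (1.02 times [0.541 to 1.94]). Leukemia cells were 3.65 times [2.53 to 5.42] the D11 B cells, the next class, but 1.37 times [0.877 to 2.28] the D14 B cells, where Myc had 19 UMIs in 9 of 40 cells.

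Mycn, the paralog of Myc that is used in early progenitors and in embryonic tissue, was the gene most restricted to leukemia cells. It had 58 UMIs in 38 leukemia cells at D11, or 17.5 CPM [13.3 to 22.6], and 485 UMIs in 285 leukemia cells at D14, or 19.0 CPM [17.4 to 20.8]. In naive blood only 2 Mycn UMIs were found among 26422110. B, T, NK and cMono sums had 0 UMIs at both days, and the highest normal level among the 7 classes was 0.48 CPM, in D14 neutrophils. The leukemia cells held 89.2% of the 65 Mycn UMIs of D11 and 93.6% of the 518 of D14.

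Stat5b, a signal transducer that cytokine receptors activate through JAK kinases, had the opposite order. It was at 19.3 CPM [14.9 to 24.7] in D11 leukemia cells and at 25.1 CPM [23.2 to 27.1] in D14 leukemia cells. T cells were highest in each library, with 319, 364 and 561 CPM in naive, D11 and D14, followed by ncMonos with 290, 218 and 244 CPM. B cells had 101.6, 126 and 112 CPM. Only erythroid barcodes, at 6.31 to 13.4 CPM, lay below the leukemia cells. Stat5a, its close paralog, had 7.84 CPM [5.12 to 11.5] and 8.94 CPM [7.82 to 10.2] in leukemia cells against 12.1 to 44.8 CPM in the nucleated normal classes, again with T cells highest in each library.

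Flt3, the receptor for FLT3 ligand on early lymphoid progenitors and dendritic cells, had 11 UMIs in leukemia cells at D11, or 3.32 CPM [1.66 to 5.94], and 139 at D14, or 5.45 CPM [4.58 to 6.44], in 80 cells of which 1 held 19 UMIs. The cMonos were highest among the 7 normal classes in every library, with 38.1, 41.4 and 12.7 CPM. Leukemia cells came next at D14, although their ratio to B cells, 1.81 [0.319 to 71.96], was not separated from 1. Kit, the receptor for stem cell factor, had 0 UMIs in D11 leukemia cells, where 3 UMIs would be 0.905 CPM, and 1 UMI in 25493717 at D14. Src had 1 and 8 UMIs in the same cells and at most 3.73 CPM in any of the 7 normal classes. A progenitor gate (Mpo, Elane, Prtn3, Ctsg, Cd34) shows that both receptors were detectable in this blood, since its 11 cells at D11 had 243 CPM of Kit and 234 CPM of Flt3, and its 12 cells at D14 had 104 and 295 CPM.

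**Figure D2:**
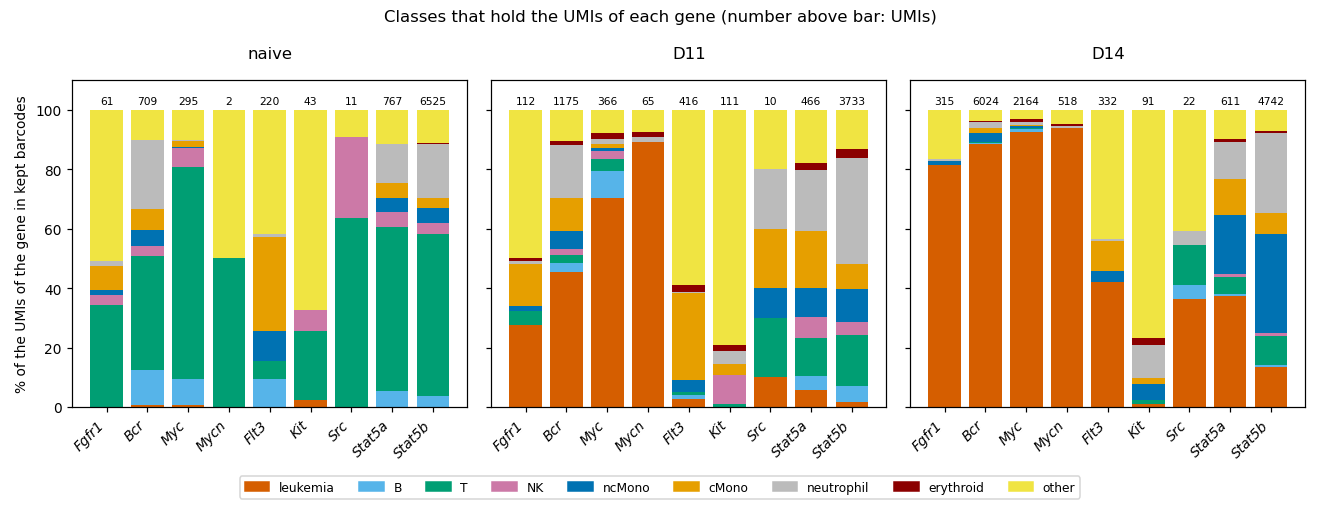
Share of each gene's UMIs (vertical axis, %) held by each class in the kept barcodes of the naive, D11 and D14 libraries, with the number of UMIs above each bar; the class other joins the small gates and the barcodes in no class. Leukemia cells hold 27.7% of Fgfr1, 45.4% of Bcr, 70.2% of Myc and 89.2% of Mycn UMIs at D11 and 81.3%, 88.5%, 92.6% and 93.6% at D14, but 13.5% of Stat5b UMIs at D14.

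A level over all kept cells mixes the classes, whose numbers differed between libraries: erythroid barcodes went from 63 to 1349 and 1055, and T cells from 1178 to 234 and 94. Stat5b was 247 CPM over all naive cells, 101.03 CPM at D11 and 92.6 CPM at D14, while within T cells it was 319, 364 and 561 CPM. Class sums were used for that reason.

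The leukemia cells were then set against normal B cells of the same library. A gene was called when the levels differed at least 2-fold and the higher one was at least 10 CPM, and with 0 UMIs in one sum the ratio was taken against a floor of 3 UMIs in that sum, as a bound. At D11, 5 genes reached 10 CPM and 3 were called higher (Bcr, Myc, Mycn), where 29.5% of all 9167 genes compared were. Of the same 5 genes 1 was called lower (Stat5b), where 21.5% of all genes were. At D14, 2 of 6 genes were called higher (Bcr, Mycn), beside 27.6% of 9288 genes, and 1 lower (Stat5b), beside 17.9%. So many genes differ between these cell types that such counts by themselves set the 9 genes apart little.

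Bcr was 6.94 times [4.95 to 10.0] the B cell level at D11 (161 against 23.2 CPM) and 8.67 times [4.40 to 20.1] at D14 (209 against 24.1 CPM). Mycn was 9.06 times the B cell floor at D11 and 2.10 times at D14, with no UMI in either B cell sum. The D14 call of Mycn thus rests on the floor of 3 UMIs. For Spry1, with 478 UMIs in D14 leukemia cells and 0 in D14 B cells, the floor gave 2.07 and the exact low limit was 1.68. The D14 Mycn call was lost with doublets removed (0.96 on the log2 scale) and with a stricter barcode filter (0.76). The lower Mycn ratio at D14 comes from the small sum of 331811 UMIs from 40 B cells, not from the leukemia cells. Stat5b was 6.53-fold lower [4.90 to 8.80] at D11 (19.3 against 126 CPM) and 4.44-fold lower [3.10 to 6.19] at D14 (25.1 against 112 CPM). Stat5a was 0.554 times [0.302 to 1.03] and 0.742 times [0.286 to 2.75] the B cell level, intervals that include both no difference and a 2-fold one.

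Myc was 3.65 times the B cell level at D11 and 1.37 times at D14, although its level in leukemia cells was alike on both days. With the 367 naive B cells as the common reference, a comparison added after the data were seen, Myc was 7.16 times [4.78 to 11.2] at D11 and 7.26 times [4.94 to 11.1] at D14. On that reference Bcr was 4.55 times [3.61 to 5.78] and 5.91 times [4.77 to 7.41], and Stat5b 5.26-fold and 4.05-fold lower. Mycn was 14.0 and 15.2 times the floor of the naive B cells. Fgfr1 was 7.49 and 8.04 times that floor, and Stat5a at D11 was 2.12-fold lower [1.26 to 3.62] than in naive B cells. Against naive B cells 3 of 5 genes were called higher and 2 lower at D11, beside 29.9% and 22.1% of all 9124 genes compared. At D14 they were 4 higher and 1 lower of 6, beside 29.4% and 17% of 9242 genes.

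**Figure D3:**
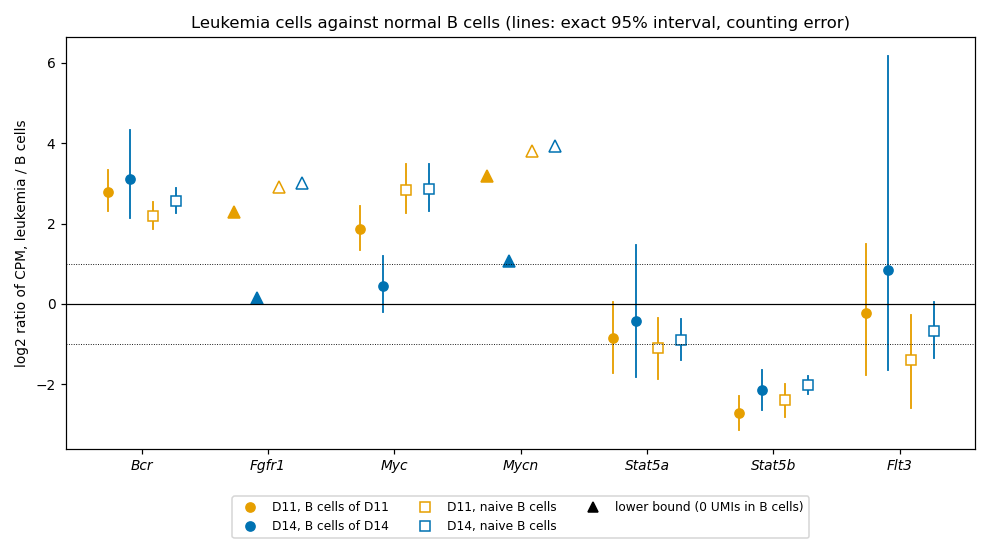
Log2 ratio of CPM in leukemia cells to that in B cells (vertical axis) for 7 of the 9 genes. Filled symbols are for B cells of the same library, open ones for naive B cells, and lines for exact 95% intervals. Triangles, labelled lower bound, are ratios to the floor where B cells had 0 UMIs. Bcr is above the dotted 2-fold line and Stat5b below it in all 4 comparisons, and Myc drops under the line only against D14 B cells.

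Against the progenitor gate, the other immature cells in this blood, 7 genes reached 10 CPM at D11. None of these was called higher and 4 lower, beside 16.8% and 24% of all 9421 genes compared. At D14 1 was higher and 6 lower of 9, beside 19% and 23.9% of 9922 genes. Bcr was 1.70 times [1.10 to 2.77] the progenitor level at D11 and 2.01 times [1.36 to 3.11] at D14, less than against B cells. Myc at 1.56 times [0.859 to 3.17] and 1.58 times [0.901 to 3.06], and Mycn at 1.29 times [0.421 to 6.46] and 0.573 times [0.288 to 1.33], were not separated from progenitors. Stat5b was 5.60-fold lower [3.35 to 9.08] than in D11 progenitors, and Flt3 was 70.6-fold lower [36.4 to 150] at D11 and 54.1-fold lower [40.04 to 72.5] at D14. Fgfr1 had 8 UMIs in 3 of 12 D14 progenitors, or 33.2 CPM [14.3 to 65.5], and was 3.31-fold lower [1.41 to 6.62] in leukemia cells. Barcodes in no class had 14.2 and 13.8 CPM of Fgfr1 at D11 and D14, above the leukemia cells as well. The progenitor sums came from 11 and 12 cells.

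Between the days no gene of the 9 differed 2-fold in leukemia cells. Of the 5 that reached 10 CPM none was called between D14 and D11, beside 4.49% of the 8600 genes compared. Myc was 1.01 times [0.890 to 1.16], Mycn 1.09 times [0.827 to 1.45] and Fgfr1 1.07 times [0.738 to 1.61] its D11 level at D14. By the mean of per-cell CPM the Fgfr1 difference turned from 0.10 to -0.60 on the log2 scale. Bcr was 1.30 times [1.19 to 1.42] its D11 level, and Stat5b 1.30 times [1.004 to 1.71]. The interval of Bcr lies above 1, but it does not include differences between mice or libraries. With TMM factors in place of totals the Bcr ratio was 0.55 on the log2 scale against 0.38, and the median of all genes moved from 0.034 to 0.19.

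Bcr UMIs were spread over most leukemia cells, and those of Myc over fewer. With each cell thinned to 10000 UMIs, which left out 20 D11 and 68 D14 cells below that depth, Bcr was seen in 71.9% of 89 D11 cells and 81.7% of 714 D14 cells. Myc was seen in 42.7% and 40.6%, Mycn in 20.2% and 16.9%, and Stat5b in 11.2% and 18.9%. The variance of Myc counts over cells was 2.66 and 2.23 times the mean, and that of Bcr counts 2.01 and 1.70 times, where the median over all genes measured this way was 1.17 and 1.19. Mycn stood at 1.06 and 1.05 times, but a low mean by itself holds this ratio near 1, so Myc and Mycn cannot be compared by it. The median of all genes was not matched in mean either. It therefore does not show whether Myc or Bcr varied more than other genes of their level. Flt3, although scarce, stood at 2.04 times at D14, with 7 UMIs in 1 thinned cell.

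Cells with and without Myc were not separated in Mycn. At D14, Mycn was seen in 18.3% [14.0 to 23.2] of 290 cells with a Myc UMI and in 16.0% [12.7 to 19.9] of 424 cells without one, after thinning. For the fusion partners, Bcr was seen in 90.0% [80.5 to 95.9] of 70 D14 cells with an Fgfr1 UMI and in 80.7% [77.5 to 83.7] of 644 cells without one, with overlapping intervals. At D11 these shares were 72.7% of 11 cells and 71.8% of 78 cells.

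A share of cells with a UMI can also come from free RNA, so all classes were thinned to 2000 UMIs and set beside neutrophils. At that depth a D14 leukemia cell had a Mycn UMI in 3.11% of cases and a neutrophil in 0.102%, and unthinned the shares were 36.4% and 0.228%. For Myc they were 12.95% and 0.61% thinned, and 62.3% and 1.44% unthinned. For Bcr they were 31.5% and 3.96% thinned. Stat5b was the reverse, with 4.02% of leukemia cells and 29.8% of neutrophils. Naive neutrophils already had 34.2 CPM of Bcr and 247 CPM of Stat5b. For Bcr and Stat5b the neutrophil share is therefore no measure of free RNA.

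The leukemia cells were mostly in cycle by their RNA: 97 of 109 cells at D11 and 608 of 782 at D14 (77.7%) had at least 2 UMIs of Mki67, Top2a and Cdk1, genes of DNA replication and mitosis. At D14 the 174 other cells had a median of 23611.5 UMIs against 34212.5 in cycling cells. Myc was 74.2 CPM in cycling and 103 CPM in other cells, a ratio of 0.721 [0.646 to 0.806]. Stat5b was 22.98 and 36.6 CPM, a ratio of 0.627 [0.520 to 0.760]. Bcr did not separate them (0.955 [0.888 to 1.03]), nor did Mycn (0.852 [0.674 to 1.09]) or Fgfr1 (0.817 [0.593 to 1.15]). Differences of 2-fold were seen in 5.60% of 8782 genes, so neither Myc nor Stat5b reached that size. At D11 only 12 cells were out of cycle, with a median of 3997 UMIs, and their Myc ratio of 0.899 [0.380 to 2.79] leaves the direction there unknown. Bcr was 158 CPM in the cycling and 310 CPM in these 12 cells, a ratio of 0.510 [0.320 to 0.868], beside 29.1% of 9283 genes that differed at least 2-fold there.

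The threshold of 3 marker UMIs was also looked at from both sides. In D14 cells with 3 to 9 marker UMIs, just inside the gate, Bcr was 162 CPM [143 to 183] and Stat5b 28.0 CPM [20.4 to 37.6], and in cells with 10 or more they were 212 CPM [206 to 218] and 24.9 CPM [22.95 to 27.0]. Cells with 1 or 2 marker UMIs, just outside it, lay between leukemia cells and cells with none: Bcr was 57.6 CPM [49.2 to 67.0], Myc 17.8 CPM [13.3 to 23.4] and Stat5b 136 CPM [123 to 150]. In D14 cells with no marker UMI Bcr was 23.1 CPM, Myc 4.74 CPM and Stat5b 163 CPM.

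**Figure D4:**
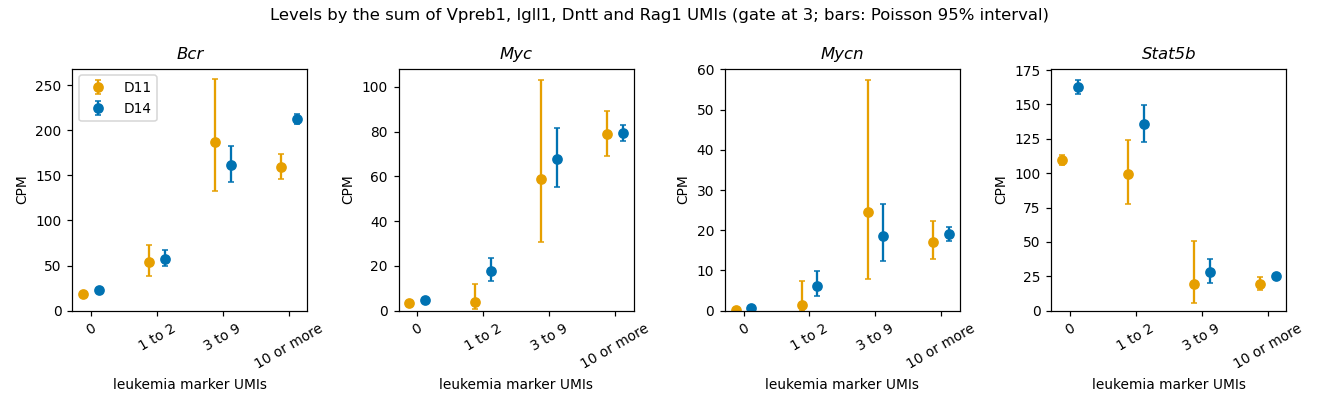
CPM of Bcr, Myc, Mycn and Stat5b (vertical axes) in all kept cells of D11 (orange) and D14 (blue), grouped by their UMIs of the 4 gate markers, with exact Poisson 95% intervals. D14 cells with 1 to 2 marker UMIs lie between those with none and those with 3 or more, and D14 Bcr is lower at 3 to 9 (162 CPM) than at 10 or more (212 CPM).

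In the normal blood cells few of the 9 genes differed 2-fold from naive. Over 7 classes there were 63 pairs of gene and class, of which 24 reached 10 CPM at each day. At D11 none was called higher than naive, beside 2.9% of all pairs, and 2 lower, beside 3.77%. At D14, 1 was called higher, beside 7.03%, and 5 lower, beside 7.96%. Bcr was not among the called pairs, and its lowest ratio to naive among the nucleated classes was in D14 neutrophils, at 19.8 against 34.2 CPM (0.580 [0.456 to 0.737]).

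Myc in B cells was the call upwards. It went from 10.8 CPM [7.07 to 15.9] in naive to 21.2 CPM [14.6 to 29.8] at D11 and 57.3 CPM [34.5 to 89.4] at D14, which is 5.29 times [2.77 to 9.94] naive. Leukemia markers moved with it: at least 1 marker UMI was in 1 of 367, 3 of 241 and 5 of 40 B cells. Of the 19 D14 Myc UMIs, 16 were in the 35 B cells without any marker UMI, in 6 cells. Mki67, a gene of proliferating cells, moved with Myc in B cells: it had 1 UMI in 1 naive cell, 41 UMIs in 4 D11 cells and 24 UMIs in 3 D14 cells, or 0.416, 26.4 and 72.3 CPM. The part of either in the Myc difference was not tested.

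Myc in T cells was lower on both days, at 18.8 CPM [16.4 to 21.6] in naive, 8.46 CPM [4.73 to 13.9] at D11 and 8.70 CPM [3.50 to 17.9] at D14. That is 2.23-fold lower [1.32 to 4.05] and 2.16-fold lower [1.03 to 5.45]. In NK cells Myc had 1 UMI at D14 against 19 in naive, a ratio of 0.259 [0.00624 to 1.63] that includes no difference. In neutrophils Myc was 0.209, 0.919 and 3.20 CPM, and the 4 gate markers together were 0, 3.22 and 23.5 CPM in the same cells, and the part of free leukemia RNA in this was not tested.

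Flt3 was lower in both monocyte classes at D14. In cMonos it had 70 UMIs in 26 of 138 naive cells, 121 in 41 of 215 D11 cells and 33 in 17 of 116 D14 cells. The D14 level was 2.99-fold lower [1.95 to 4.68] than naive. The cMonos also differed in Mki67, with 27 UMIs in 17 naive cells, 41 in 29 D11 cells and 527 in 54 D14 cells. The part of this in the Flt3 difference was not tested. In ncMonos Flt3 was 20.4, 8.97 and 1.86 CPM, or 2.27-fold lower [1.15 to 4.55] at D11 and 10.97-fold lower [5.20 to 24.3] at D14. The ncMono difference rests on very few cells, since the 22 naive UMIs came from 2 of 130 cells, 13 of them from 1 cell, and the 17 D11 UMIs from 2 of 209 cells. The last call was Stat5b in erythroid barcodes, 2.12-fold lower at D14 [0.858 to 4.59], with 8 naive UMIs and an interval that includes no difference. Stat5b in T cells, at 561 against 319 CPM, stayed under 2-fold.

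Genes around the 9 were read from lists for each step of the pathway, in D14 leukemia cells against D14 B cells, where the median of all genes was 0.23 on the log2 scale and 27.6% of all genes were called higher and 17.9% lower. Fibroblast growth factor receptors and adaptors had 1 higher and 1 lower of 11 genes at 10 CPM or more (median 0.38). Gab2, a docking adaptor, was 2.46 times [1.64 to 3.89] and Grb2, the adaptor that brings SOS to receptors, was 4.64-fold lower [4.01 to 5.34] at 134 against 624 CPM. Other known partners of FGFR1 in human fusions were close to D14 B cells, with 1 higher and 1 lower of 11 (median -0.092). These were Cpsf6, an RNA cleavage factor, 2.17 times [1.57 to 3.08], and Cntrl, a centrosome protein, 2.19-fold lower [1.65 to 2.84]. At D11 the list had 0 higher and 2 lower of 11, beside 29.5% and 21.5% of all genes. Against naive B cells at D14 it again had 0 higher and 2 lower of 11, beside 29.4% and 17%. There Cpsf6 was not called, at 1.49 times at D11 and 1.34 times against naive B cells. The second lower gene was Myo18a, 2.90-fold [1.98 to 4.27] and 2.69-fold [2.20 to 3.28]. Of 8 ligands only Flt3l reached 10 CPM, with 4 UMIs in D14 B cells, and it was 2.36-fold lower [0.635 to 6.20] in leukemia cells.

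Feedback genes of the MAPK route, whose RNA is made when ERK is active, were called higher in 6 of 6 (median 2.52), where 27.6% of all genes were. In D14 B cells Spry1 had 0 UMIs, and Spry2 and Egr1 had 1 UMI each. The interval of the Spry2 ratio, 3.89 [0.693 to 154], included 1, and Egr1 was 5.62 times [1.004 to 223]. Spred1, an inhibitor of RAS, was at 115 CPM against 3.01 CPM in D14 B cells, where it had 1 UMI, a ratio of 38.2 [6.85 to 1509]. Etv5, an ETS factor, was 7.98 times [2.73 to 38.7] and Dusp6, the ERK phosphatase, 5.82 times [2.27 to 21.4]. At D11 the list had 5 higher and 1 lower of 6 (median 2.98), beside 29.5% and 21.5% of all genes. The lower gene was Egr1, 2.02-fold [1.24 to 3.27]. Against naive B cells at D14 the list had 5 higher and none lower of 6, beside 29.4% and 17%. There Spred1 was at 4.85 times, and Egr1 was not called at 1.36 times [0.937 to 2.04]. The size for Spred1 thus depends on which B cells are used.

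The list of the Src family, which relays B cell receptor signals, and its brakes Csk and Pag1 leaned the other way, with 1 higher and 5 lower of 9 (median -1.41). The higher gene was Fyn, at 3.06 times [2.12 to 4.61]. At D11 the list had 2 higher and 4 lower of 8, beside 29.5% and 21.5% of all genes. Against naive B cells at D14 it again had 2 higher and 4 lower of 8, beside 29.4% and 17%. The second higher gene was Lck, at 2.63 times [1.62 to 4.46] at D11 and 2.50 times [1.76 to 3.67] against naive B cells at D14. Lyn, the main Src kinase of B cells, was 215 CPM against 1504 CPM, or 6.98-fold lower [6.36 to 7.66]. Yes1 was 38.4-fold lower [16.1 to 86.0], from 10 UMIs in B cells. Against naive B cells at D14 Yes1 was 4.24-fold lower [1.62 to 10.1], with both sums under 10 CPM, so its size also depends on the B cells used. JAK kinases and other STATs were called lower in 7 of 9 and higher in none (median -1.89), where 17.9% of all genes were lower. Stat4 was 5.90-fold lower [4.01 to 8.41] and Jak2 5.73-fold lower [4.42 to 7.32], and at D11 7 of 8 were lower (median -2.20), beside 21.5% of all genes. Against naive B cells at D14 5 of 8 were lower (median -1.15), beside 17%.

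Genes known as STAT5 targets were called higher in 4 and lower in 1 of 8 (median 1.32), beside 27.6% and 17.9% of all genes. At D11 they were 3 higher and 2 lower of 8 (median 0.86), near the 29.5% and 21.5% of all genes, and Socs1, another feedback inhibitor, was then 2.13-fold lower [1.24 to 3.66] than in B cells. Socs2, a feedback inhibitor of cytokine receptors, had 9198 UMIs in D14 leukemia cells, or 361 CPM, and 1 UMI in D14 B cells, a ratio of 120 [21.5 to 4729]. At D11 it was 280 against 1.93 CPM, and naive B cells had 0 UMIs. Ccnd2, a G1 cyclin, was 5.33 times [3.75 to 7.85] and Pim2, a survival kinase, 7.83-fold lower [4.80 to 12.2]. Against naive B cells at D14 the list had 7 higher and 1 lower of 8, beside 29.4% and 17%, so its count depends on the B cells used. Of the 9 lists it had the most genes called between the days within leukemia cells, 3 of 7, beside 4.49% of all 8600 genes either way. Cish (2.16 times [1.73 to 2.72]), Socs1 (2.17 times [1.499 to 3.25]) and Ccnd2 (2.04 times [1.90 to 2.19]) were at least 2-fold higher at D14 than at D11, while Stat5a and Stat5b themselves were not called. These 3 were named after their values were seen, as were Gab1 (2.22 times) and Mxd4 (2.44 times), the other listed genes called between the days.

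Genes known as MYC targets were called higher in 9 of 10 and lower in none (median 1.68), where 27.6% of all genes were higher. Srm, spermidine synthase, was 4.79 times [2.20 to 13.1], Ldha, lactate dehydrogenase, 4.78 times [3.21 to 7.46] and Cad, of pyrimidine synthesis, 3.64 times [1.42 to 13.4]. At D11 the list again had 9 of 10 higher (median 2.23), beside 29.5% of all genes. Between the days none was called, beside 4.49% of all genes. The list still leaned lower at D14 than at D11, with a median of -0.31 beside 0.034 for all genes. The partners and antagonists of MYC were close to B cells, with 1 lower of 7 (Mxd3, 2.26-fold [0.820 to 5.004]) and a median of -0.12. That call rests on 6 Mxd3 UMIs in D14 B cells, and the other references had Mxd3 the other way. At D11 it was 5.63 times [1.78 to 28.6] the B cell level. Naive B cells had 0 UMIs, and Mxd3 was 8.70 times their floor at D11 and 6.41 times at D14, there under 10 CPM. The exact low limits were 6.72 and 5.16.

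**Figure D5:**
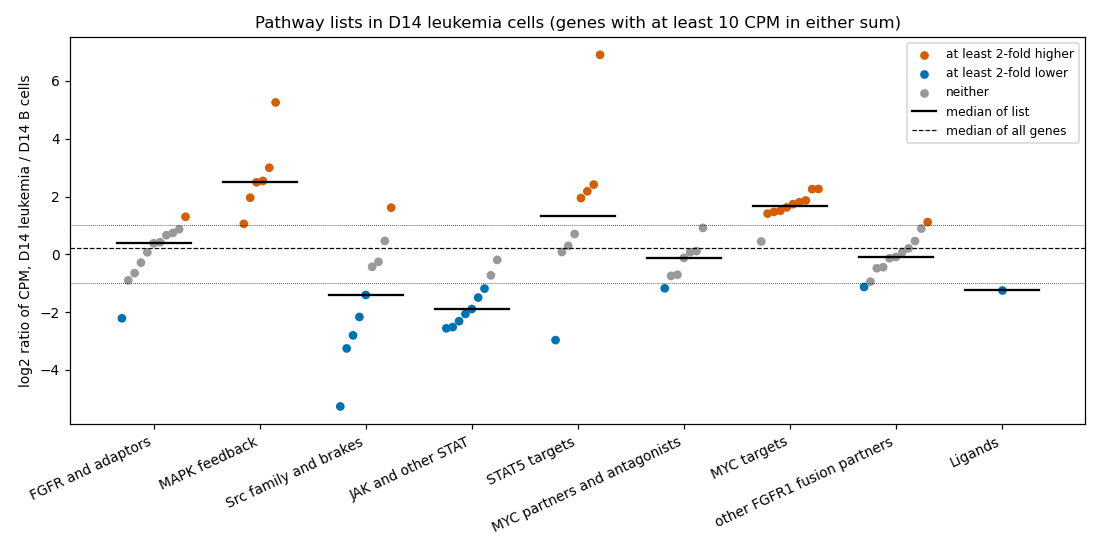
Log2 ratio of CPM in D14 leukemia cells to D14 B cells (vertical axis) for each gene of 9 pathway lists with at least 10 CPM in either sum, coloured by call, with the median of each list as a black bar and that of all genes as a dashed line. MAPK feedback and MYC target genes lie above the dashed line, and most JAK, STAT and Src family genes below it.

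Finally, genes were ranked by how closely their level followed each of the 9 across 23 sums of class and library (Pearson's r of log2(CPM + 10), over 6893 genes with at least 50 CPM in a sum). These sums share libraries and depth, and r is given as a description. Mycn was followed most closely, by Syndig1l (0.998), Vpreb2, a surrogate light chain gene (0.996), and Clgn (0.996), all found chiefly in leukemia cells. As Mycn was at most 0.48 CPM in the normal sums, these r rest on the D11 and D14 leukemia sums. Other genes confined to leukemia cells would also come near 1. Myc went with Grhpr (0.941), Phgdh, of serine synthesis (0.932), and Mthfd1, of folate metabolism (0.923). Bcr went with Chchd4 (0.942), Morf4l2 (0.935) and Timm8b (0.924), of which Chchd4 and Timm8b act in mitochondrial import, and Fgfr1 with Rsph9 (0.883), Lxn (0.880) and Hacd1 (0.871).

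For the genes that were low in leukemia cells, Stat5b went with Cdkn1b, an inhibitor of the cell cycle (0.952), and Zc3hav1 (0.947). Stat5a went with Slc49a4 (0.938), Atg13 (0.932) and Ifnar1, a receptor for type I interferon (0.920). Flt3 went with Batf3, a factor of dendritic cells (0.924), Fcgr1 (0.921) and Ifi44 (0.916). Kit and Src did not reach the level this ranking needs.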

How the data were processed

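The authors prepared 10x Genomics 3′ v3 libraries of PB after red cell lysis and removal of dead cells, ran Cell Ranger (7.1.0 with mm10 per the submitters' processing notes, 5.0.1 in the matrix headers) and deposited filtered matrices of raw UMI counts per gene and barcode, without normalization. Whether intronic reads were counted is not given in the sources used here. Samples were grouped by their labels.

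Barcodes under 200 genes or over 10% mitochondrial UMIs were removed (remaining median depth 6031, 6389 and 6781 UMIs in naive, D11 and D14). A leukemia gate (at least 3 UMIs of Vpreb1, Igll1, Dntt and Rag1) came first. Normal classes needed at least 3 UMIs of their own markers and 3 times those of every other class, and hemoglobin under 50% of UMIs, above which a barcode was erythroid. Barcodes in no class (412, 372 and 283) were left out of comparisons, and doublets were kept. Levels are CPM of these sums, with exact Poisson intervals, ratios were bounded by the exact conditional binomial method and shares by that of Clopper and Pearson (scipy 1.17.1, Python 3.11.15), all 95%. A call needed a 2-fold ratio and 10 CPM in the higher sum. The 9 genes, lists and rules were chosen with earlier results of these data known. Named genes are the 9, up to 3 called genes of each list with the largest D14 ratio to B cells, and the 3 with the highest r per gene. Some genes that this rule names are not reported here. Other exceptions are stated, or are Spry1, Spry2, Egr1, Fyn, Lck, Csk, Pag1 and Myo18a, given to show what the list counts rest on. Alternatives were gates, barcode filters, doublets removed (Scrublet in scanpy 1.11.5), other scalings (TMM of edgeR 4.0.16), minimums and folds. The procedures were tested on simulated data.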

Additional observations from a re-analysis of the deposited data

Results flagged for a closer look

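Myc differed in direction between normal classes at D14: it was 5.29 times the naive level in B cells and 0.462 times in T cells. This difference between the classes was not tested, as each condition had 1 library.

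Barcodes that fell in no class were used in no comparison, and some of the 9 genes stood at least 2-fold above the naive level in them. At D11 these were Flt3 at 62.3 CPM (naive 26.6 CPM) and Kit at 14.2 CPM (naive 3.8 CPM). At D14 they were Bcr at 86.9 CPM (naive 24.3 CPM), Myc at 24.97 CPM (naive 11 CPM) and Kit at 19.6 CPM (naive 3.8 CPM). The 4 markers of the leukemia gate stood at 1.14, 8.79 and 40.1 CPM in the naive, D11 and D14 barcodes of no class, and their part in these values was not tested.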

How the results depend on the processing

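No paired analysis was possible because each condition had 1 library. Leaving out a replicate was likewise not possible. For the 9 genes in leukemia cells no called direction reversed, whereas Mxd3 of the lists turned with the B cells used, as given above. The uncalled D14 Stat5a ratio to B cells and D14 to D11 Fgfr1 ratio turned, also as given above. On the log2 scale the uncalled D14 Flt3 ratio to B cells went from 0.86 to as low as -0.68. The uncalled D14 to D11 Src ratio went from 0.057 to as low as -0.14. The count of 0 calls between D14 and D11 held in all 11 alternatives run for it. Genes higher than D14 B cells numbered 1 in place of 2 under a stricter barcode filter (500 genes, 5% mitochondrial UMIs) or with doublets removed, and 4 against naive B cells, Mycn being the call lost. Those higher than D11 B cells numbered 4 in place of 3 at a minimum of 5 CPM, without one, by per-cell CPM or without ribosomal, mitochondrial and hemoglobin genes, and 2 with TMM. Genes lower than D11 B cells numbered 2 in place of 1 by the mean of per-cell CPM, at a 1.5-fold limit or against naive B cells, and genes lower than D14 B cells 2 without a minimum CPM. Pairs called in normal classes at D11 numbered 1 in place of 2 with the stricter barcode filter, 5 without ribosomal, mitochondrial and hemoglobin genes, 5 at a minimum of 5 CPM, 7 without one and 6 at 1.5-fold. At D14 they numbered 14 in place of 6 without a minimum and 11 at 1.5-fold. A gate of 10 UMIs left 1 of the 2 naive leukemia-gate cells. The causes were not tested. TMM moved the median of all genes between D11 leukemia and B cells from 0.17 to -0.089 on the log2 scale. Over all ratios, shares and list counts, those given above included, 24 values were marked as moved and 380 were not. A ratio or share was marked only when it left the counting interval of its main value. Ratios that turned, as given above, can therefore be among the 380. A list count was marked when it changed more than 1.5-fold. The D14 comparisons with B cells are limited by the 40 B cells.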
